A study of Passer montanus with 72 samples.

Results

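Motile cilia are beating cell projections built around a microtubule core, the axoneme. Dynein arms along its outer doublets produce the stroke, radial spokes and a central pair of microtubules pattern it, and docking and regulatory complexes hold the arms in place. The transcription factor FOXJ1 switches on the genes of this machinery, and intraflagellar transport (IFT) trains carry building blocks into motile and primary cilia alike. In the vertebrate brain, motile cilia are known from the ependymal cells that line the ventricles, where they move cerebrospinal fluid, and from choroid plexus epithelium; most neurons and glia carry a single primary cilium instead.

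The genes described here are those whose symbol is FOXJ1 or begins with CFAP, DNAH, DNAI, TEKT, RSPH, SPAG, DRC, ODAD or IFT followed by a digit, away from the sex chromosomes. The rule found 79 genes, of which 3 (DNAI1, CFAP53 and SPAG8) lay on the Z chromosome sequence and were left out, so 76 of the 21957 genes of the count table were members. Reads were counted for at least 1 library in 66 members, and 38 members had enough counts to be tested between regions. The symbol rule gathers more than axoneme parts: 36 members of the dynein arms, docking complex, spokes, central apparatus and regulatory complex, with TEKT1, are called the axoneme set below, 13 are IFT subunits, which primary cilia also use, 15 further CFAP genes were kept as a class of their own, and SPAG9, a scaffold for motor proteins and kinases, is not known as an axoneme part. The axoneme set does not hold every axoneme protein: CFAP44, in the further CFAP class, and CFAP20 and the other tektins are doublet proteins outside it, and counts with and without them are given.

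RNA was sequenced from 3 brain regions, the striatum and the caudal and rostral parts of the hippocampus, of 24 wild-caught Eurasian tree sparrows (Passer montanus) held captive. By their labels 11 birds were female and 13 male, and each gave 1 library per region, 72 in all. Age, treatment and each bird's behaviour are not given in the labels, so the groups used here are region and labelled sex. Each library is bulk tissue, so fewer cells of a type and less RNA per cell cannot be told apart in any result below.

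Total counts per library ranged from 2629433 to 5323201 (median 4071234). Bird 260 is labelled female, but its 3 libraries held 0 counts of CHD1W, a gene of the female-specific W chromosome; the group is therefore called birds labelled female, and the calls by sex, with the FOXJ1 levels behind them, are also given without it. The striatum library of bird 11 had counts in 7718 genes, against 10087 in the next lowest library, and the member calls in striatum that change without it are named. Levels are given as CPM, counts scaled to a common library size with TMM factors. Log2 folds carry standard errors, levels carry standard deviations, and a gene was called at a Benjamini-Hochberg adjusted p under 0.05 over all genes tested.

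Many motile cilia genes had few counts in these tissues. Of the 76 members, 10 had no count in any library, among them SPAG16 of the central apparatus, DRC1 of the nexin-dynein regulatory complex, DNAH11 of the outer arm and the tektins TEKT2, TEKT3 and TEKT4, the last a group of filament proteins inside the doublets. A further 8 had between 1 and 9 counts over all 72 libraries. Of all 21957 genes of the count table, 7258 (33.1%) had no count, a larger share than among the members. The filter for the region tests kept 38 of the 76 members and 10445 of the 21957 genes. A count of 0 may also come from reads that the gene models did not capture. The deposited gene identifiers are not those of the sparrow reference table, and the build counted on is not given. Levels compared between genes carry the same limit. Expressed per kilobase of gene model, the members spanned a wide range: in caudal hippocampus CFAP20, a doublet inner junction protein, stood at 158 CPM per kilobase, SPAG9 at 72.9 and the train subunit IFT46 at 47.0. FOXJ1 stood at 1.67 CPM per kilobase on the same scale, and the dynein heavy chains DNAH10, DNAH3, DNAH1, DNAH12 and DNAH5 lay between 0.434 and 1.61. SPAG9 and IFT46, among the highest, have known roles outside motile cilia.

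Caudal hippocampus held more motile cilia RNA than rostral hippocampus. Of the 38 tested members, 22 were called higher in caudal hippocampus and 0 lower, where 23.1% of all 10445 genes tested were called higher and 22.5% lower. The median log2 fold of the tested members was 0.55, against 0.02 over all genes. Positive folds were found for 32 of the 38 and for 52.3% of all genes. An unadjusted p under 0.05 was found for 24 of the 38 and for 5425 of all 10445 genes tested. DESeq2 also called 22 members higher and 0 lower, and 5127 of all genes in either direction. Called folds ran from 0.19 to 1.75 on the log2 scale, and 7 of the 22 were at least 1. In the axoneme set 13 of 16 tested members were called higher, with a median of 0.79, and with the other doublet proteins and CFAP44 counted in it was 14 of 18, with a median of 0.79. Of the IFT subunits 4 of 12 were called higher, with a median of 0.15; the contrast between the 2 classes was not itself tested. Leaving out each of the 24 birds in turn never lost 18 of the 22 calls, while those of ODAD2, DNAH17, CFAP298 and CFAP99 were lost without 12, 10, 9 and 8 of the birds.

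**Figure D1:**
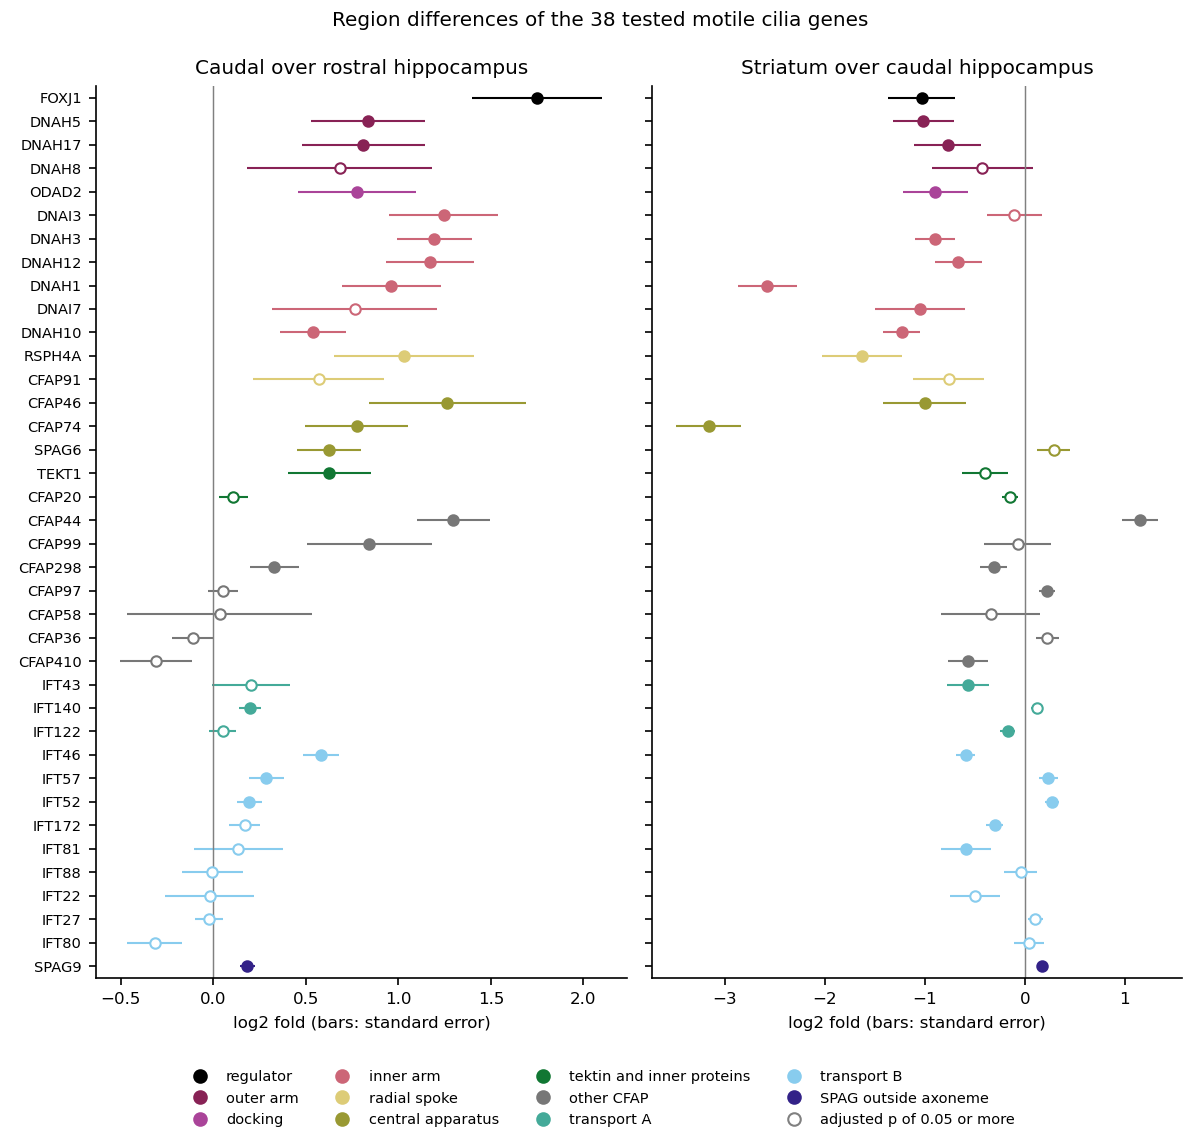
Log2 folds of the 38 tested motile cilia genes for caudal over rostral hippocampus (left) and striatum over caudal hippocampus (right), coloured by structural class; bars are standard errors and filled points are called. On the left FOXJ1 lies farthest to the right at 1.75 and no called point lies below 0, while on the right CFAP74 and DNAH1 lie farthest to the left at -3.16 and -2.57 and CFAP44 farthest to the right at 1.15.

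FOXJ1 (gene identifier 100219792 in the deposited table), the master regulator, showed the largest fold among the 38 members tested between caudal and rostral hippocampus. Its level was 0.303 CPM in the lowest caudal library, 5.98 in the median and 10.2 in the highest. In rostral hippocampus the lowest, median and highest were 0, 1.17 and 6.68 CPM, and in striatum 0, 2.32 and 5.41. The regions overlapped, but 21 of 24 birds had more FOXJ1 in caudal than in rostral hippocampus. The log2 fold was 1.75 ± 0.35 (adjusted p = 5.65e-05), from mean levels of 5.56 ± 2.51 and 1.87 ± 1.92 CPM (n = 24 each). These levels rest on few reads, with a median of 19.5 counts per caudal library and 5.5 per rostral one.

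The inner dynein arms, which shape the bend of the cilium, had 5 of 6 tested members called higher in caudal hippocampus. DNAH3, an inner arm heavy chain, ranged from 6.54 through a median of 12.7 to 36.4 CPM in caudal libraries. In rostral libraries it ranged from 1.44 through 6.42 to 15.9 CPM, so the groups overlapped, while 9 caudal libraries exceeded every rostral one. Its log2 fold was 1.19 ± 0.20 (adjusted p = 4.02e-06). DNAH12, a second heavy chain of this kind, gave 1.17 ± 0.24, DNAH1 gave 0.96 ± 0.27, and DNAI3, an intermediate chain of the double-headed inner arm, gave 1.25 ± 0.29. DNAH10, a heavy chain of the same double-headed arm, gave 0.54 ± 0.18. The exception was DNAI7, at 0.77 ± 0.45 (adjusted p = 0.159).

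The outer arms, which supply most of the power of the stroke, had 2 of 3 tested heavy chains called higher. DNAH5, a heavy chain of the outer arm in human airway cilia, was 0.84 ± 0.31 higher on the log2 scale (adjusted p = 0.0219), with medians of 5.09 CPM in caudal and 2.91 CPM in rostral hippocampus and overlapping ranges. Caudal exceeded rostral DNAH5 in 10 of 11 birds labelled female (median difference 3.99 CPM). In males it did so in 5 of 13, with a median difference of -0.90 CPM. DNAH17 gave 0.81 ± 0.33 (adjusted p = 0.041), and ODAD2, a docking complex subunit that anchors the outer arm, gave 0.78 ± 0.32 (adjusted p = 0.0409). DNAH8, an outer arm heavy chain best known from sperm, was not called (0.68 ± 0.50, adjusted p = 0.273): its median was 0 CPM in caudal hippocampus, and caudal exceeded rostral in 3 of 11 birds labelled female and 7 of 13 males. Dynein heavy chain genes share long similar stretches, and the way shared reads were counted is not given in the sources used here, so differences between single heavy chains are uncertain.

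Spokes and central apparatus, the control system of the beat, were also higher in caudal hippocampus. RSPH4A of the radial spoke head was higher by 1.03 ± 0.38 on the log2 scale (adjusted p = 0.0227), with a median of 8.0 counts per caudal library. CFAP91, a spoke base protein, did not pass (0.57 ± 0.36, adjusted p = 0.192). All 3 tested central apparatus members were called: CFAP46 at 1.26 ± 0.42, CFAP74 at 0.78 ± 0.28 and SPAG6 at 0.62 ± 0.17. TEKT1, the only tektin with enough counts, gave 0.63 ± 0.22 (adjusted p = 0.0189). The call of CFAP74 did not hold without the replicate block of bird.

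Among the remaining CFAP genes, CFAP44, which tethers inner arm motor heads to the doublet, was the clearest. It ranged from 3.02 through 10.4 to 25 CPM in caudal libraries and from 1.42 through 4.64 to 9.22 CPM in rostral libraries, and 14 caudal libraries exceeded every rostral one. Its log2 fold was 1.30 ± 0.20 (adjusted p = 4.36e-07). Caudal exceeded rostral CFAP44 in 11 of 11 birds labelled female and in 8 of 13 males. CFAP97, CFAP36 and CFAP410, which cells without motile cilia also use, gave 0.05 ± 0.08, -0.11 ± 0.12 and -0.31 ± 0.19, none of them called.

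IFT subunits showed small folds. IFT46, a core subunit of the B trains that move towards the tip, was the exception: its caudal libraries ranged from 53.2 through 62.0 to 100 CPM and its rostral libraries from 30.7 through 42.3 to 69.4 CPM, with only 4 rostral libraries above the lowest caudal one. Its log2 fold was 0.58 ± 0.10 (adjusted p = 1.97e-06). IFT57 (0.29 ± 0.09) and IFT52 (0.20 ± 0.07) of the B trains and IFT140 (0.20 ± 0.06) of the A trains, which return to the base, were also called. Caudal exceeded rostral IFT57 in 11 of 11 birds labelled female and in 7 of 13 males. IFT122, IFT43, IFT172, IFT81, IFT88, IFT22, IFT27 and IFT80 lay between -0.32 and 0.20 and were not called. SPAG9 had a small but called fold of 0.19 ± 0.04 (adjusted p = 0.00014).

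Summing the 36 members of the axoneme set gave 48.9 to 143 CPM per caudal library (median 100.3), 35.2 to 105 CPM per rostral library (median 58.8) and 31.2 to 86.1 CPM per striatum library (median 52.4). The caudal sum exceeded the rostral sum in 22 of 24 birds and the striatal sum in 22 of 24. The striatal sum exceeded the rostral sum in 10 of 24. The 13 IFT members together ran from 279 to 417 CPM in caudal libraries (median 353.9). They ran from 267 to 395 CPM in rostral libraries (median 305.6) and from 253 to 402 CPM in striatum (median 329.9). Their caudal sum exceeded the rostral sum in 21 of 24 birds and the striatal sum in 15 of 24. Their striatal sum exceeded the rostral sum in 17 of 24. The axoneme sums of the regions were thus further apart, relative to their level, than the IFT sums.

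**Figure D2:**
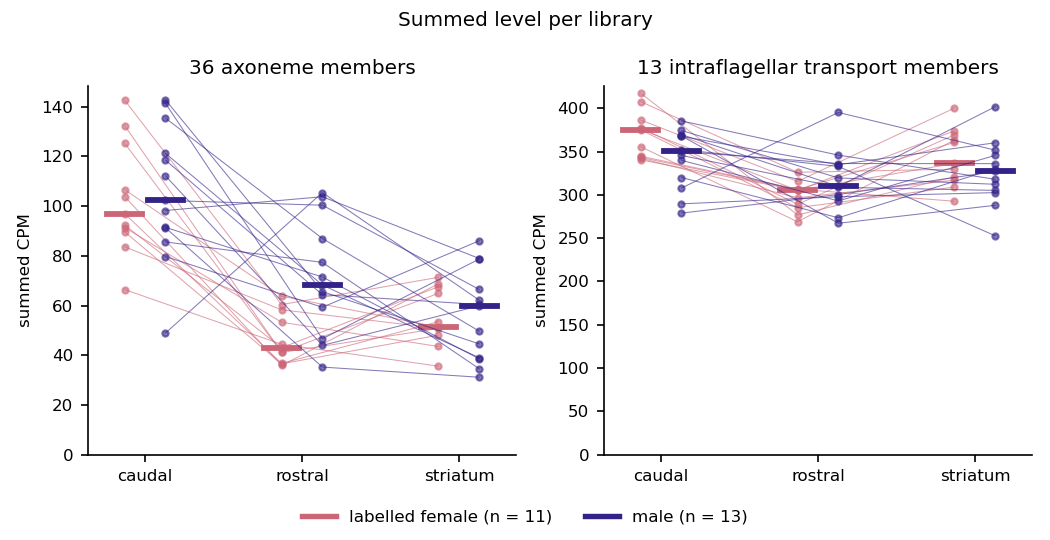
Summed CPM of the 36 members of the axoneme set (left) and the 13 intraflagellar transport members (right) in each library, by region and labelled sex; thin lines join the 3 libraries of a bird and thick bars are group medians. In caudal hippocampus, rostral hippocampus and striatum the axoneme medians are 97.0, 43.0 and 51.4 in birds labelled female. In males they are 102.3, 68.3 and 59.9, so rostral hippocampus and striatum change order between the sexes. The rostral birds labelled female lie below the male median of 68.3.

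Members too rare for the test were described by their means. Of the 28 untested members with a count, 18 had their highest mean CPM in the caudal part, 8 in the rostral part and 2 in striatum. The same shares were not taken over all untested genes, so no excess in a region can be read from these numbers. The most abundant of these members had 226 counts over all libraries. Without the filter on low counts, CFAP54 (log2 fold 2.20), CFAP61 (1.72), CFAP100 (1.65), CFAP70 (1.59) and RSPH1 (1.34) were called higher in caudal than in rostral hippocampus, while CFAP298, CFAP99, DNAH17 and ODAD2 lost their calls, so that 18 of the 22 calls held. Among them CFAP54 is a central apparatus protein, while CFAP61 and RSPH1 belong to the radial spokes.

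Genes of the same structures outside the naming rule were compared as a list drawn up with earlier results of these data known. Of 20 tested genes for other axoneme parts and for arm assembly, 8 were called higher in caudal than in rostral hippocampus and 0 lower, with a median log2 fold of 0.38. DNAAF6, which helps to assemble dynein arms in the cytoplasm, gave 2.21 ± 0.42, EFCAB1 gave 1.66 ± 0.46 and MNS1, a protein inside the doublet, gave 1.37 ± 0.19. Of 7 tested regulators of multiciliated cells, only E2F5 was called higher (0.45 ± 0.08), and E2F4 was called lower (-0.73 ± 0.20); MCIDAS, which starts the multiciliated programme, had no count. Of 43 tested genes of the primary cilium and the transport motors, 12 were called higher and 5 lower, with a median of 0.06. Over all genes tested, 23.1% were called higher and 22.5% lower, so the higher calls of this last list lay near the background.

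Markers of cells that could carry these cilia were set beside the members. Of 9 tested ependymal markers outside the cilium, 2 were called higher in caudal hippocampus (CD24 at 1.26 ± 0.21 and VIM at 0.72 ± 0.18) and 3 lower (AQP4 at -0.76 ± 0.16, PROM1 at -0.65 ± 0.08 and GJA1 at -0.46 ± 0.09); AQP4 and GJA1 are astrocyte genes too. Over all genes tested 23.1% were called higher and 22.5% lower, and the median log2 fold of this list was 0.10, so its counts lay near the background. The summed CPM of this list was 894 to 2117 in caudal, 680 to 1589 in rostral and 532 to 1206 in striatal libraries, and KRT18 had no count. Of 11 tested choroid plexus markers, 4 were called higher and 0 lower, with a median of 0.84, led by TTR, the thyroid hormone carrier of choroid plexus, at 8.57 ± 0.61, and OTX2 at 4.12 ± 0.64. The choroid plexus list summed to 291 to 3486 CPM in caudal, 322 to 769 CPM in rostral and 240 to 506 CPM in striatal libraries, and CLIC6 had no count. In males its median was 1340 CPM in caudal and 508 CPM in rostral libraries, while in birds labelled female it was 459 and 563 CPM. The part of these cells in the member differences was not tested.

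Striatum held less RNA of most axoneme members than caudal hippocampus. Of the 38 tested members, 19 were called lower in striatum and 5 higher, where 32.9% of all genes tested were called lower and 28.3% higher; the median log2 fold was -0.41, against -0.05 over all genes. In the axoneme set 11 of 16 tested members were called lower and 0 higher, with a median of -0.90; with the other doublet proteins and CFAP44 counted in, 11 of 18 were called lower and 1, CFAP44, higher. The 5 called higher were CFAP44, IFT52, IFT57, CFAP97 and SPAG9. Without bird 11, 14 members were called lower, the calls of CFAP298, CFAP46, DNAH17, DNAI7 and IFT81 being lost. Over all birds left out in turn, 16 of the 24 calls were never lost. With DESeq2's size factors in edgeR 3 members were called higher and 22 lower, CFAP97 and IFT57 losing their calls.

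CFAP74 of the central apparatus and the inner arm heavy chain DNAH1 fell most. CFAP74 ranged from 0 through 0.387 to 1.85 CPM in striatum, against 2.40 through 4.54 to 8.46 CPM in caudal hippocampus, and these ranges did not overlap. Its log2 fold was -3.16 ± 0.33 (adjusted p = 1.84e-12), and 0 of 24 birds had more of it in striatum than in caudal hippocampus. DNAH1 ranged from 0 through 2.10 to 5.89 CPM in striatum and from 1.82 through 10.7 to 24.3 CPM in caudal hippocampus, with 21 caudal libraries above every striatal one. Its log2 fold was -2.57 ± 0.29, again with 0 of 24 birds higher in striatum. FOXJ1 fell by less, with a log2 fold of -1.03 ± 0.33 (adjusted p = 0.00665). RSPH4A gave -1.63 ± 0.40, DNAH10 -1.23 ± 0.19, DNAI7 -1.04 ± 0.45, DNAH5 -1.01 ± 0.31 and DNAH3 -0.90 ± 0.20, each called, while DNAI3 (-0.10 ± 0.28), SPAG6 (0.29 ± 0.17) and TEKT1 (-0.40 ± 0.23) were not. The call of DNAI7 was lost without any 1 of 9 birds, bird 11 among them, and with no filter on low counts.

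CFAP44 went the other way. It ranged from 11.5 through 24.6 to 37.5 CPM in striatum, above both hippocampal parts in its median, and every striatal library exceeded every rostral one. The log2 fold was 1.15 ± 0.18 over caudal hippocampus (adjusted p = 2.14e-07) and 2.45 ± 0.19 over rostral hippocampus (adjusted p = 8.04e-17). CFAP44 was highest in the region where 11 members of the axoneme set were called lower than in caudal hippocampus. No other tested member showed non-overlapping ranges between striatum and rostral hippocampus. How many of all genes tested had non-overlapping ranges between regions was not counted, so how unusual such ranges are is not known.

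**Figure D3:**
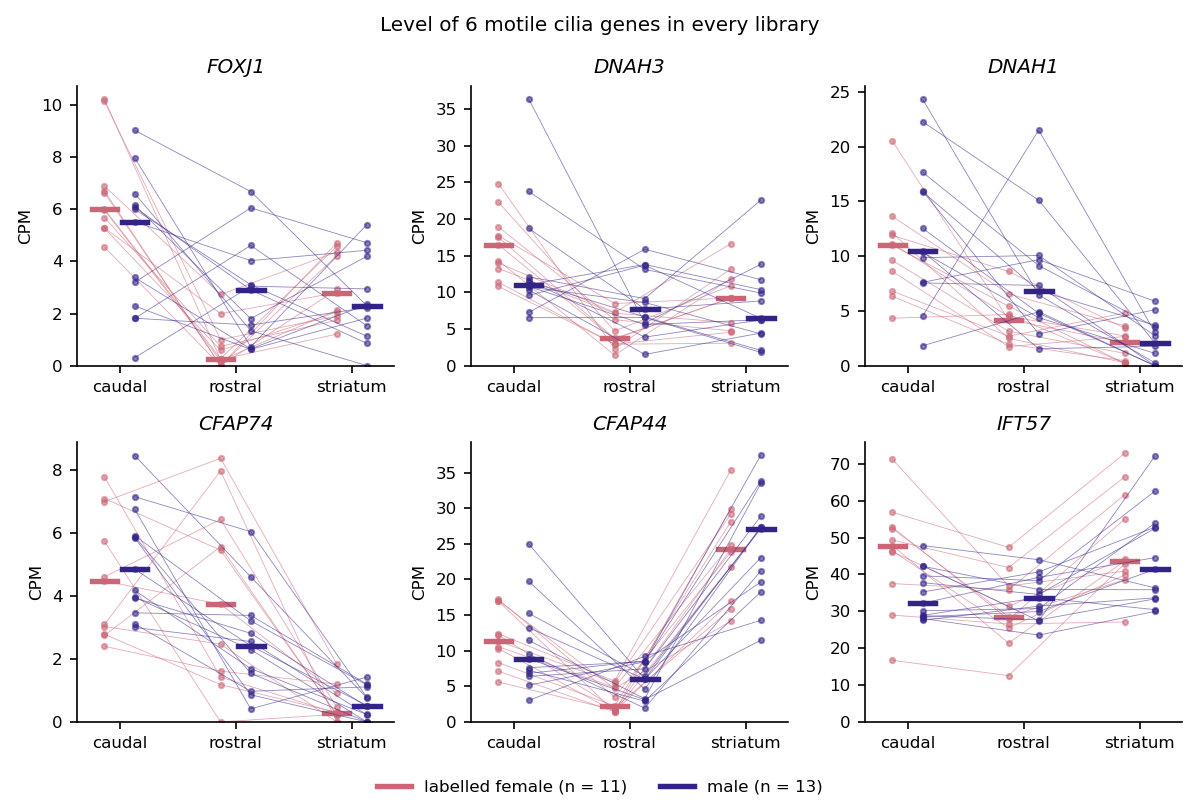
CPM of 6 motile cilia genes in every library, by region and labelled sex; thin lines join the 3 libraries of a bird and thick bars are group medians. FOXJ1 is lowest in rostral hippocampus of birds labelled female (median 0.269 CPM, or 0.413 without bird 260), CFAP74 and DNAH1 are lowest in striatum, and CFAP44 is highest there.

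Between striatum and rostral hippocampus the members were split. Of the 38 tested members, 9 were called higher in striatum and 4 lower, where 28.6% of all genes were called higher and 31.6% lower, and the median log2 fold was 0.01 against -0.04 over all genes. This split depended on scaling: with DESeq2's size factors in edgeR it was 8 higher and 8 lower, and DESeq2 gave 10 higher and 9 lower. Higher in striatum, beside CFAP44, were DNAI3 (1.14 ± 0.29), SPAG6 (0.91 ± 0.17), CFAP99 (0.77 ± 0.34), IFT57 (0.52 ± 0.09), IFT52 (0.47 ± 0.07), SPAG9 (0.36 ± 0.04), IFT140 (0.32 ± 0.06) and CFAP97 (0.28 ± 0.08). Lower were CFAP74 (-2.39 ± 0.33), DNAH1 (-1.61 ± 0.30), CFAP410 (-0.88 ± 0.20) and DNAH10 (-0.69 ± 0.19). The call of CFAP99 was lost with DESeq2's size factors in edgeR, with no filter, without the replicate block and without any 1 of 13 birds, while the other 12 calls were never lost to a single bird. FOXJ1 did not pass (0.72 ± 0.36, adjusted p = 0.0766), though it did without bird 2, bird 3 or bird 11 and with DESeq2; DNAH12 was also called without bird 11. The comparisons of striatum share its libraries, and each shares a hippocampal part with the caudal to rostral comparison.

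**Figure D4:**
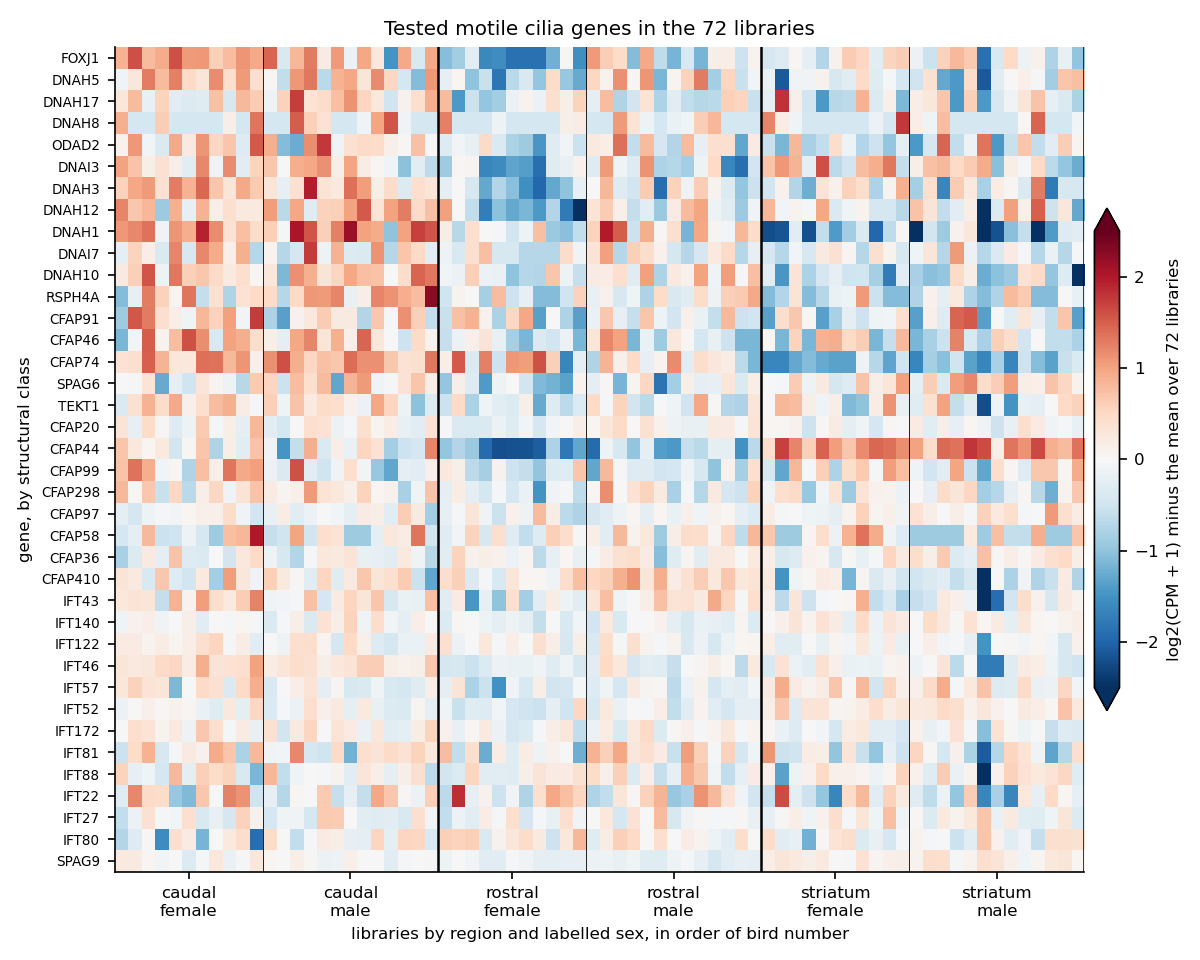
Level of the 38 tested members in the 72 libraries, as log2(CPM + 1) minus the gene's mean over all libraries, with genes by structural class and libraries by region and labelled sex; red is above and blue below the mean. Caudal libraries are mostly red in the upper, axoneme rows, the SPAG9 and IFT140 rows vary little, and the CFAP44 row is red throughout most of striatum.

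The sexes differed in how FOXJ1 was divided between the hippocampal parts. In caudal hippocampus FOXJ1 ranged from 4.55 through 6.00 to 10.2 CPM in birds labelled female and from 0.303 through 5.52 to 9.02 CPM in males. In rostral hippocampus it ranged from 0 through 0.269 to 2.73 CPM in birds labelled female, with 3 of 11 libraries at 0 counts, and from 0.625 through 2.90 to 6.68 CPM in males, with none at 0. The rostral median of birds labelled female was the value of bird 260 itself; without this bird it was 0.413 CPM, with 3 of 10 libraries at 0 counts, and the caudal median was 6.30 CPM. The caudal level exceeded the rostral level in 11 of 11 birds labelled female (10 of 10 without bird 260), by 3.29 to 9.98 CPM, and in 10 of 13 males, by a median of 2.35 CPM. The log2 difference, male minus female, in the caudal to rostral fold was -2.66 ± 0.63 (adjusted p = 0.018). FOXJ1 was the only call among 38 members, where 2.3% of all genes were called, so the number of member calls lay near the background. Without bird 260 the difference was -2.61 (adjusted p = 0.0265), and over all 29 alternatives it stayed between -3.02 and -2.46 with adjusted p from 0.00126 to 0.0423.

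The other members leaned the same way without passing. Of the 38 members, FOXJ1 included, 31 had a negative difference, with a median of -0.42 against -0.01 over all genes. A positive difference was found for 18.4% of the members and 49.1% of all genes. An unadjusted p under 0.05 was found for 7, FOXJ1 among them, and for 1705 of all 10445 genes. This count thus lay near the background. Without bird 260, 29 of the 38 were negative, again with FOXJ1 included, with a median of -0.35. IFT57 gave -0.57 ± 0.18 (adjusted p = 0.0712), DNAH3 gave -1.18 ± 0.37 (adjusted p = 0.0754) and CFAP44 gave -1.13 ± 0.37 (adjusted p = 0.083); without bird 260 these were -0.52, -1.26 and -1.09 (adjusted p = 0.115, 0.0788 and 0.13). These 3 were called by DESeq2 and when bird 8 was left out; DNAH3 was also called without bird 11, and IFT57 when the hippocampal libraries were fitted alone.

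Markers of several cell types also differed between the sexes in this contrast, in both directions. Over all 10445 genes tested 2.3% were called and 49.1% had a positive difference. Of 11 tested choroid plexus markers 8 had a positive difference and 3 a negative one, with a median of 0.55, and 2 were called: KL, of the Klotho family, at 3.11 ± 0.62 (adjusted p = 0.00446, and 0.00941 without bird 260) and SLC13A4 at 2.95 ± 0.84 (adjusted p = 0.0456, and 0.0599 without bird 260). TTR was not called (3.53 ± 1.76, adjusted p = 0.306); it ranged from 1.14 through 6.32 to 67.0 CPM in caudal libraries of birds labelled female, with a median of 4.45 without bird 260, and from 1.73 through 696 to 2554 CPM in those of males. All 10 tested markers of neural progenitors and neuroblasts were negative, with a median of -0.30. Among them the cell cycle genes CCND1 (-0.73 ± 0.19, adjusted p = 0.0268) and TOP2A (-4.30 ± 1.21, adjusted p = 0.0443, and 0.0503 without bird 260) were called. Of 9 tested astrocyte markers 7 were negative, with a median of -0.13, and FABP7, a fatty acid binding protein of radial glia and astrocytes, was called at -1.56 ± 0.33 (adjusted p = 0.00743). Of 9 tested ependymal markers 5 were negative and 4 positive, with a median of -0.13 and none called. CD24 gave -0.96 ± 0.40 (adjusted p = 0.208) and VIM -0.90 ± 0.35 (adjusted p = 0.152). In the other direction S100B gave 1.21 ± 0.87 (adjusted p = 0.504), and NUMB, PROM1 and CELSR2 lay between 0.07 and 0.14. GJA1, AQP4, SOX9 and S100B were counted in both the astrocyte and the ependymal list. Of 13 tested vascular and meningeal markers 10 were positive, and ALDH1A2 was called at 2.11 ± 0.50 (adjusted p = 0.018). All 5 tested oligodendrocyte markers were positive (median 0.54), as were 8 of 14 neuron and 2 of 3 microglia markers. Of 20 tested genes for other axoneme parts and arm assembly 13 were negative, with a median of -0.62. Negative differences were also found for 5 of 7 multiciliated cell regulators and 24 of 43 primary cilium and transport motor genes. No gene of these further lists was called. Without bird 260 the adjusted p was 0.0357 for CCND1, 0.0161 for FABP7 and 0.0139 for ALDH1A2. The part of these cells in the FOXJ1 difference was not tested.

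**Figure D5:**
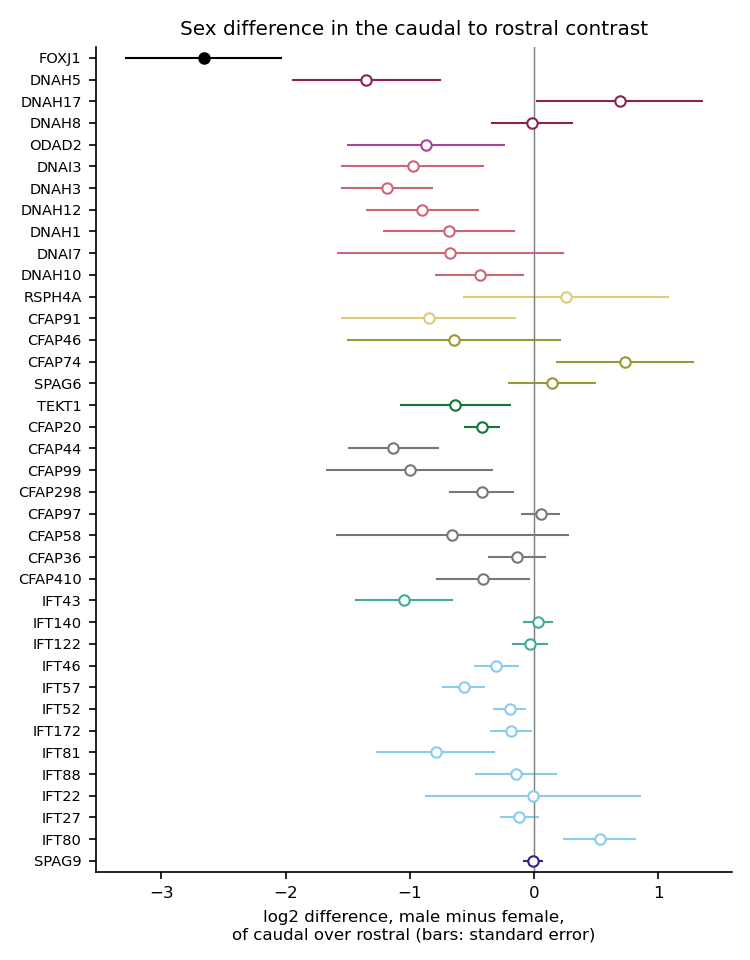
Log2 difference, male minus female, of the caudal over rostral fold for the 38 tested members, coloured by structural class as in the plot of region folds; bars are standard errors and filled points are called. FOXJ1 at -2.66 is the filled point, and 31 of the 38 points lie below 0.

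Within a region, few members differed between the sexes. In caudal hippocampus edgeR called 0 of 30 tested members, with 1 at an unadjusted p under 0.05 (IFT57, log2 fold of males over females -0.41 ± 0.16) and 0 called by DESeq2, where 2.69% of all genes were called; without bird 13 IFT57 was called. FOXJ1 there gave -0.52 ± 0.29 (adjusted p = 0.453), and -0.53 without bird 260 (adjusted p = 0.508), when 0 of 33 tested members were called. In striatum edgeR and DESeq2 each called 0 of 27 members, and 0 had an unadjusted p under 0.05, where 1.69% of all genes were called; without bird 260 it was also 0 of 27. Over all genes, 1162 of 8846 in caudal hippocampus and 454 of 8750 in striatum had an unadjusted p under 0.05.

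Rostral hippocampus had 2 calls among 27 tested members, both higher in males, where 5.29% of all genes were called. IFT43, an A train subunit, ranged from 2.85 through 7.80 to 13.1 CPM in birds labelled female and from 8.86 through 12.3 to 19.2 CPM in males, giving a log2 fold of 0.70 ± 0.20 (adjusted p = 0.034). CFAP20 ranged from 105 through 129 to 161 CPM in birds labelled female and from 126 through 155 to 202 CPM in males, giving 0.31 ± 0.09 (adjusted p = 0.038). Ranges overlapped for both genes. Without bird 260 the female medians were 7.92 and 123 CPM, and the folds were 0.70 and 0.35, both still called. Neither call was firm: that of CFAP20 was lost without any 1 of 12 birds (3, 4, 6, 7, 9, 10, 14, 17, 18, 19, 20 or 262) and that of IFT43 without any 1 of 10 (1, 3, 6, 10, 13, 17, 18, 19, 20 or 262). Other members gained calls when single birds were left out, DNAH5 without 5 of them, and DESeq2 called 6 members, adding CFAP44, DNAH1, DNAH3 and DNAH5. Over all genes DESeq2 called 707, where edgeR called 476. In all, 21 of 27 members and 50.9% of all genes were higher in males, with a median log2 fold of 0.22 against 0.01 over all genes. An unadjusted p under 0.05 was found for 10 of the 27 and for 1797 of all 9003 genes tested. Without bird 260, 21 of 27 were higher, with a median of 0.21. FOXJ1 was too low in these libraries for the test; without the filter it was called at a log2 fold of 2.02 (adjusted p = 0.0323).

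The test of a level that differed from bird to bird within sex and was shared by the 3 regions called 5 of 38 members, where 11.1% of all genes were called, so the members lay near the background. The B train subunits IFT27, IFT22 and IFT57 had bird means of 12.2 to 29.0 CPM, 0.614 to 8.37 CPM and 24.05 to 59.0 CPM (adjusted p = 0.000659, 0.00222 and 0.0156). CFAP97 ran from 18.8 to 40.0 CPM (adjusted p = 0.0305), a call that was lost without bird 19, 20 or 260 and with no filter. DNAH8 ran from 0 to 2.38 CPM (adjusted p = 0.00012), a call that was lost without bird 17, the bird with its highest mean. DESeq2 called 12 members. FOXJ1 was not called (adjusted p = 0.949), and DNAH8 was the only one of the 5 in the axoneme set.

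Whether members rose and fell with FOXJ1 from bird to bird was described within each region over 24 birds, for 37 tested members per region and with adjustment over 10444 genes. In caudal hippocampus the permutation test called 0 members (4 at an unadjusted p under 0.05 for Spearman's rho; 0% of all genes called), and in striatum 0 (7 at an unadjusted p under 0.05; 0% of all genes). In rostral hippocampus 5 members were called, where 5.29% of all genes were called with a positive correlation, and the median rho of the members was 0.32 against 0.02 over all genes. ODAD2 gave r = 0.67 and rho = 0.69 (permutation test, adjusted p = 0.00754 and 0.00736), and r = 0.63 without the 2 birds farthest from the median FOXJ1 level. Within birds labelled female its r was 0.56 and within males 0.65. CFAP44 gave r = 0.63 (0.59 and 0.29 within the sexes, in the same order), DNAH10 0.60 (0.67 and 0.29), CFAP298 0.61 (0.50 and 0.55) and CFAP20 0.67 (0.11 and 0.73). Without bird 260, r over the other 23 birds lay between 0.58 and 0.73, and within the 10 remaining birds labelled female it was 0.56 for ODAD2, 0.62 for CFAP44, 0.66 for DNAH10, 0.49 for CFAP298 and 0.23 for CFAP20. CFAP298 lies outside the rule for named genes and is named because the calls were few. FOXJ1 exceeded 1 CPM in 12 of the 24 rostral libraries, 10 of them male. The part of its sex difference and of its low counts in these correlations was not tested. Of the 30 genes with the highest positive rho with FOXJ1 in each region, 0 were members. With 37 members among 10444 genes, this count says little about the members.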

How the data were processed

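The authors deposited 1 table of whole-number read counts per gene, not normalized, for 21957 genes and 72 libraries. Reads were handled with HISAT2 and StringTie, versions unnamed, per the submitters' processing notes; build, annotation, strand setting and counting tool: not given in the sources used here. None of the gene identifiers (0) and 72 of the 76 member symbols were in the RefSeq table of the sparrow.

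After filterByExpr (min.count 10, min.total.count 15) and TMM scaling, the quasi-likelihood test of edgeR 4.0.16 (R 4.3.3) was applied, adjusted by Benjamini-Hochberg over all genes tested. Bird was a block in comparisons of regions and in the sex by part interaction; sexes were compared per region. Libraries were paired by the bird number of their titles: deviations of libraries of 1 bird correlated at a median of 0.145 between hippocampal parts, against -0.0092 for different birds. Bird-level differences were tested by an F test within sex. Correlations used log2 CPM with a prior count of 2 and 100000 permutations. Alternatives were DESeq2 1.42.0, its size factors in edgeR, no filter, no block, hippocampal libraries alone, and each bird left out. The tests were checked on simulated counts. No libraries of a group agreed within sampling noise (chi-square over degrees of freedom at least 5.58). Genes named were FOXJ1, the called members with the largest folds, those called or with the smallest p in the other tests, and the 2 with the highest mean count per structural class. Members and gene lists were chosen with earlier results of these data known. Sequences of the members are not used here.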

Additional observations from a re-analysis of the deposited data

Results flagged for a closer look

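The difference between the sexes in the caudal to rostral fold of FOXJ1 was past the threshold of a test of that difference itself, at a log2 value of -2.66 (male minus female). Caudal exceeded rostral FOXJ1 in 11 of 11 birds labelled female (10 of 10 without bird 260, whose label is in doubt) and in 10 of 13 males. The values rest on low counts, with 3 of 11 rostral libraries of birds labelled female at 0. FOXJ1 was the only call among 38 members, where 2.3% of all genes were called.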

How the results depend on the processing

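None of the 36 members taken by the rule for named genes changed direction past a threshold under any alternative run. The other members were not checked for such a change. In caudal against rostral hippocampus, 18 to 23 members were called higher with single birds left out and 0 to 1 lower, IFT80 being called lower without bird 2, 20 or 21; without the replicate block of bird 20 were called higher, all of them among the 22. In striatum against caudal hippocampus the 5 members called higher became 3 with DESeq2's size factors in edgeR and 3 with DESeq2, and in striatum against rostral hippocampus the 4 called lower became 8 and 9. The calls between the sexes in rostral hippocampus ranged from 0 to 4 members and from 310 to 951 genes with single birds left out. DESeq2 called 6 members and 707 genes there. In caudal hippocampus the calls ranged from 0 to 1 member, and in striatum from 136 to 226 genes, the highest without bird 260. The sex by part interaction was called for 1 to 4 members and 76 to 598 of all genes with single birds left out, against 240 with all birds; DESeq2 called 4 members and 427 genes, the fit without the replicate block 1 member and 130 genes, and the hippocampal libraries alone 2 members. The test of a level shared within a bird called 12 members and 2613 genes with DESeq2, against 5 and 1162. Of the 5 members called for co-variation with FOXJ1 in rostral hippocampus, 3 were called without the 2 birds farthest from its median. The 38 untested members had too few counts for the test, and the part of sequencing depth in this was not tested. Folds of genes with few counts per library, FOXJ1 included, are imprecise. The causes of these changes were not tested.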
